A study of Mus musculus with 19 samples.

Results

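The 42 genes described here encode parts of the primary cilium and were listed by name and role. They comprise 17 subunits of the intraflagellar transport (IFT) trains, 10 BBSome genes (7 subunits and 3 genes of its assembly or recruitment), 3 kinesins, the GTPase gene *Arl13b*, the 2 polycystins *Pkd1* and *Pkd2*, 8 genes of the transition zone and *Cspp1* of the axoneme and centrosome. All 42 were found among the 51912 genes counted in each library. RNA was measured by Click-seq, in which each cDNA molecule carries a unique molecular identifier, in the cerebral cortex of single mouse embryos at E13.5 on a mixed C57BL/6 and 129 background. The embryos were 7 ctrl, 5 cKO-E (*Emx1* Cre/+ with both copies of *Ino80* floxed, fl/fl) and 7 dKO-E (the same alleles together with *Trp53* fl/fl), and the alleles that the ctrl embryos carried are not given in the labels. *Ino80* encodes a nucleosome remodeler and *Trp53* encodes p53. Cre expressed from *Emx1* acts in cortical neural progenitor cells and is inherited by their progeny, so interneurons, microglia and vessels in the dissected tissue lie outside the deleted lineage.

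The primary cilium is a single antenna that projects from the apical surface of a cortical progenitor into the ventricle. Its axoneme is built and maintained by IFT trains, of which the IFT-B complex travels outward with the kinesin-2 motor and the IFT-A complex is needed for the return and for import of membrane proteins. The BBSome carries receptors out of the cilium, the transition zone at its base acts as a gate, and polycystins form a cation channel complex in its membrane. In the developing forebrain the cilium is best known as the place where Hedgehog signals are received and the GLI factors are processed.

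A total of 820915 to 8095810 molecules were counted per library, with a median of 2952788, and the members together took 1860 to 2137 CPM (counts scaled to library size) in an embryo. Sequencing had 3 batches (1 held 4 ctrl, 3 cKO-E and 4 dKO-E embryos, batch 2 held 3, 2 and 2, and batch 3 held dKO-E E alone). The embryos came from 7 litters, ctrl from 4, cKO-E from 5 and dKO-E from 2. Of the dKO-E embryos, A to C shared litter 1 with 2 ctrl embryos. The others, D to G, were all males of litter 2, which held no ctrl, so against ctrl they differ in litter as well as genotype. No litter gave both cKO-E and dKO-E, so genotype and litter cannot be told apart between the mutants. Females made up 4 of 7 ctrl, 4 of 5 cKO-E and 2 of 7 dKO-E embryos. Counts of *Ino80*, summed over the whole gene so that the floxed exons are not resolved and the deletion is not checked, were higher in both mutants than in ctrl (log2 fold change 0.48 and 0.62, adjusted p = 7.92e-05 and 8.84e-07 by edgeR), and *Trp53* was lower in dKO-E (log2 fold change -0.36, adjusted p = 0.0196). Summed markers of the choroid plexus were at 0 to 1.70 CPM in every embryo. Markers of other cell types differed in range between groups: those of microglia summed to 3.13 to 11.8 CPM in ctrl, 22.4 to 28.0 in cKO-E and 4.86 to 8.38 in dKO-E, and those of neurons to 2889 to 4522, 3449 to 4295 and 2446 to 3527 CPM. Those of mesenchyme summed to 2.91 to 64.2, 1.18 to 7.45 and 2.99 to 67.9 CPM. They were uneven between embryos, at 64.2 CPM in ctrl F and 67.9, 46.8 and 33.2 CPM in dKO-E B, C and E. Their part in the results below was not tested, and fewer cells of a type cannot be told apart from less RNA per cell in bulk tissue.

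Of the cilium genes, *Pkd2*, *Cc2d2a* and *Bbs4* fell in both mutants, *Cspp1* rose in both, and 28 of the 42 were called in no comparison. The 28 include *Bbs10* and *Bbs12*, which were not tested against ctrl. The share of all genes called in both mutants, or in no comparison, is not given here. These counts therefore do not show a change particular to the members. Of 40 members tested, 3 were higher and 6 lower in cKO-E at a false discovery rate of 0.05, 7.5% and 15% of them, beside 7.31% and 9.88% of all 11660 genes tested. In dKO-E 3 members rose and 5 fell, 7.5% and 12.5% of the 40 tested, beside 5.45% and 10% of all 11381 genes. At the rate of 0.001 used by the study, 2 members (*Pkd2* and *Cc2d2a*) were called in cKO-E, both lower, where 1.06% of all genes rose and 2.32% fell. The study applied that rate to edgeR's likelihood-ratio test, whereas the calls here come from edgeR's quasi-likelihood test. At that rate *Cspp1* rose and *Pkd2*, *Cc2d2a* and *Bbs4* fell in dKO-E, where 0.246% of all genes rose and 2.34% fell. An unadjusted p under 0.05 was reached by 11 members in cKO-E and by 13 in dKO-E (27.5% and 32.5%, beside 29.8% and 29.6% of all genes). Over the members, the median log2 fold change for cKO-E was -0.02 and for dKO-E 0.07, where the medians of all genes tested were 0.02 and 0.01. Both comparisons use the same 7 ctrl embryos. *Bbs10*, with 4 to 12 counts per ctrl library, and *Bbs12*, with 0 counts in every library, did not pass the filter on low counts against ctrl. *Bbs10* and *Bbs12* encode chaperonin-like proteins that assemble the BBSome.

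**Figure D1:**
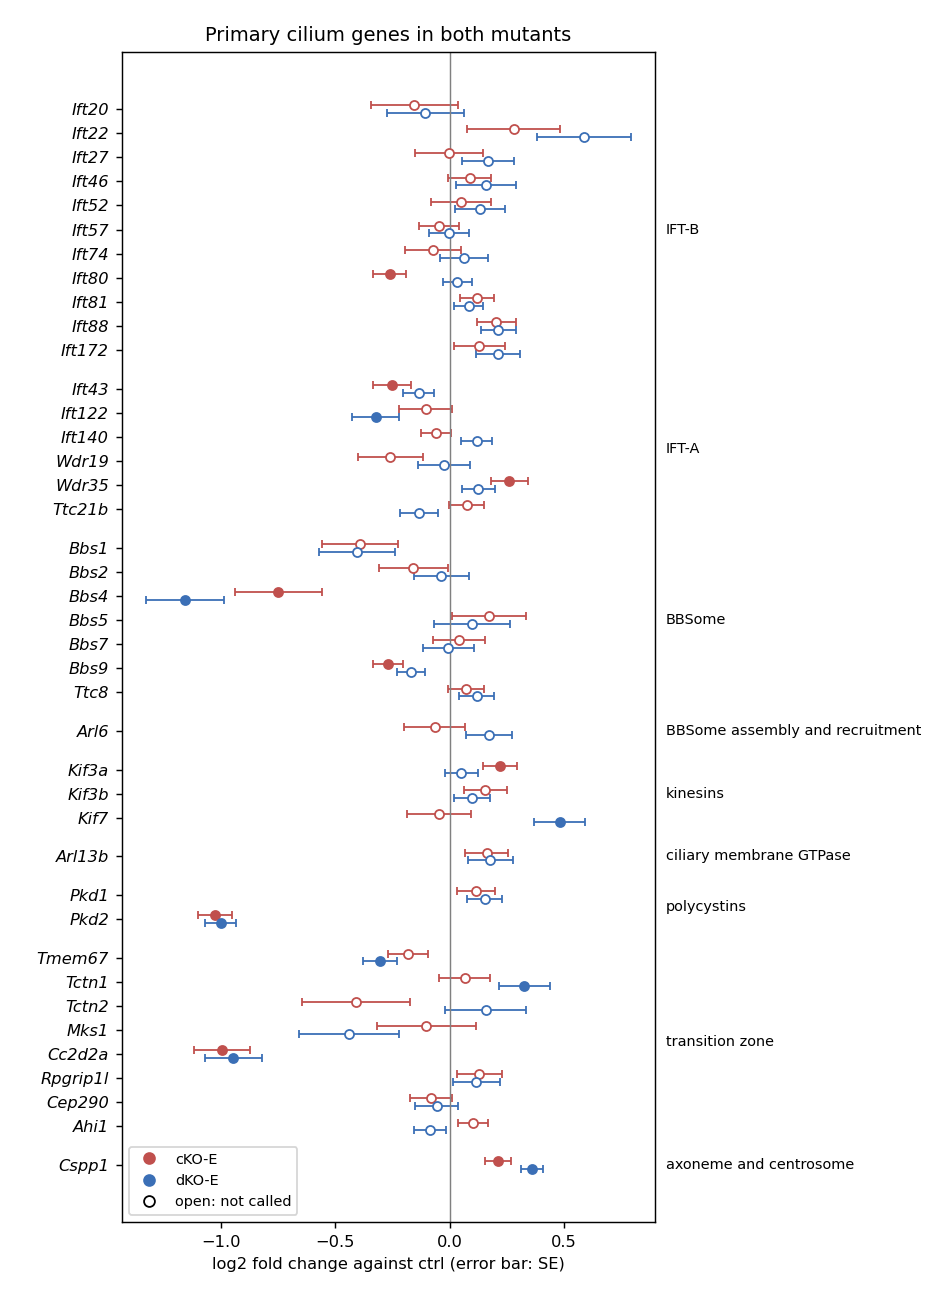
Log2 fold change against ctrl (horizontal axis, error bar 1 SE) of the 40 members tested, grouped by role, for cKO-E (red, 5 embryos) and dKO-E (blue, 7 embryos) against the same 7 ctrl embryos; filled points passed the false discovery rate of 0.05. *Pkd2* and *Cc2d2a* lie near -1 in both mutants and *Bbs4* at -0.75 and -1.16, while the members called in no comparison lie between -0.44 and 0.59.

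The cilium genes were expressed at unlike levels in ctrl cortex, compared here per kilobase of exon (RPKM, CPM divided by the summed length of all annotated exons). The highest was *Ift43*, a small IFT-A subunit, at 38.1 ± 2.24 RPKM (SD, n = 7), followed by *Ift74* of IFT-B at 22.0 ± 3.56 and the kinesin-2 motor gene *Kif3a* at 21.9 ± 2.24. The ranges of *Ift74* and *Kif3a* overlapped (18.5 to 28.8 and 18.2 to 24.4 RPKM). *Pkd2* stood at 10.7 ± 0.68 RPKM and *Pkd1* at 4.01 ± 0.54, and no ctrl embryo had a *Pkd1* level as high as the lowest *Pkd2* level (4.74 against 9.73 RPKM). Over the 42 members the median was 6.34 RPKM, with 12 above 10 and 8 below 3. The lowest measured members were *Mks1* at 1.74, *Tctn2* at 1.30 and *Bbs10* at 0.91 RPKM. In mutants these low members rest on few molecules: 3 counts correspond to 0.379 to 3.54 CPM, depending on the library.

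**Figure D2:**
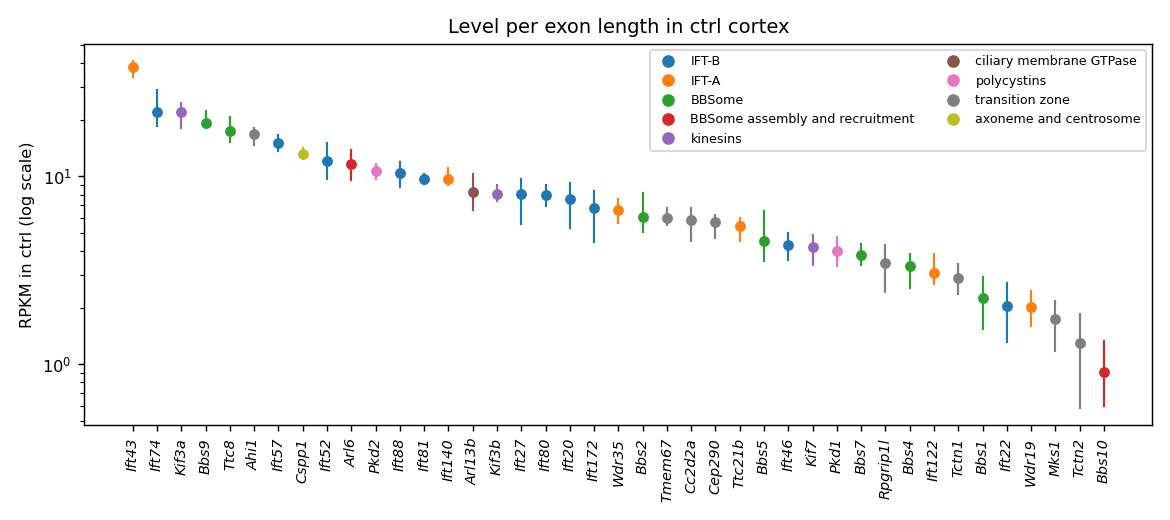
Level of each cilium gene in ctrl cortex (vertical axis, RPKM on a log scale; point, mean of 7 embryos; line, lowest to highest embryo; colour, role). *Bbs12*, at 0 counts in every library, is not drawn; levels run from 38.1 RPKM for *Ift43* to 0.91 for *Bbs10*.

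The promoters of the 3 members that fell in both mutants are shown because these genes moved together, as the 250 bases before the RefSeq start on GRCm38.p6, 5′ to 3′ on the gene's own strand. Capitals mark any match on either strand to the 4 letter strings searched, which were the core of the YY1 motif (AANATGG) and a shorter form that can overlap it (GATGGC), and the half-site of the X-box bound by RFX factors (GTTGCC) and its longer form (GTTGCCA). YY1 is a partner of the INO80 complex, and some RFX factors are known activators of cilium genes. *Pkd2* lies at chr5:104459207-104459456 on the plus strand, *Cc2d2a* at chr5:43662129-43662378 on the plus strand and *Bbs4* at chr9:59353509-59353758 on the minus strand.
Pkd2: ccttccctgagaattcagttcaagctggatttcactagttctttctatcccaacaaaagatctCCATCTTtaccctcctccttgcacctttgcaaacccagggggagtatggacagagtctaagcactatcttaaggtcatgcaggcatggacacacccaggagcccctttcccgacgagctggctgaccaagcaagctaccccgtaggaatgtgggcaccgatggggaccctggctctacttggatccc
Cc2d2a: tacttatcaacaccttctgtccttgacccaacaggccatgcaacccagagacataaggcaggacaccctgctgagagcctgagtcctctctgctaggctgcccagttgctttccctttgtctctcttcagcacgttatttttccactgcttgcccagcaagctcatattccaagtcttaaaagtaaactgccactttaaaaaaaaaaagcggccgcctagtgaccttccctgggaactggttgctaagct
Bbs4: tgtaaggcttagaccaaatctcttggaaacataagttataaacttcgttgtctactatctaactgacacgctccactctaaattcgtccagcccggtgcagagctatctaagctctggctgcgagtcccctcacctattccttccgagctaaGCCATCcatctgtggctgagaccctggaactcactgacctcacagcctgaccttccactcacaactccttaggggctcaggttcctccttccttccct
The window of *Pkd2* held the YY1 core on the opposite strand, starting 187 bases before the start, that of *Bbs4* held the shorter form on the opposite strand at 98 bases, and that of *Cc2d2a* held none of the 4 strings. RefSeq promoters were at hand for 37 of the 42 members, without *Cspp1*, *Ift122*, *Ift80*, *Ift81* and *Tmem67*. Among those 37, the YY1 core was in 6 (16.2%), beside 12.5% of all 27025 promoters, and the shorter form in 6 (16.2%), beside 10.6%. The X-box half-site was in 7 members (18.9%), beside 10.5% of all promoters, and its longer form in 2 (5.41%), *Ift27* and *Mks1*, beside 3.69%. Such matches describe the letters of these windows and do not show binding. A window without a match does not show its absence either, since only the 250 bases before the start were searched. The study instead used YY1 ChIP-seq peaks near the start, which were not examined here.

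*Pkd2* encodes polycystin-2, the channel subunit of the polycystin complex (ENSMUSG00000034462.9, chromosome 5, 104459450 to 104505819). It was at 98.9, 106 and 118 CPM in the lowest, median and highest ctrl embryo. The 5 cKO-E embryos A to E had 49.3, 56.5, 47.9, 62.5 and 54.2 CPM, and the dKO-E embryos ran from 49.0 over a median of 54.3 to 68.5 CPM. Every mutant embryo of either genotype lay below every ctrl embryo. *Pkd2* fell to 0.491 of the ctrl level in cKO-E (log2 fold change -1.03, SE 0.08, adjusted p = 1.78e-07 by edgeR's quasi-likelihood test) and to 0.499 in dKO-E (-1.002, SE 0.07, adjusted p = 9.05e-09). Between the mutants the difference was 0.03 on the log2 scale, with an SE of 0.09 (adjusted p = 0.90). Within litters that held both genotypes, the log2 ratio of cKO-E to ctrl was -0.91, -1.22 and -0.998 in litters 4, 5 and 7, and that of dKO-E to ctrl was -1.03 in litter 1. Within sequencing batches 1 and 2 the log2 fold change was -1.09 and -0.93 in cKO-E and -1.05 and -0.89 in dKO-E.

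*Pkd1* encodes the large receptor-like partner that polycystin-2 binds. Its level was 57.8, 67.7 and 82.5 CPM in the lowest, median and highest ctrl embryo, 71.2, 74.8, 82.9, 79.0 and 76.9 CPM in cKO-E A to E, and 70.5, 79.2 and 88.7 CPM in dKO-E. The 3 groups overlapped. *Pkd1* passed the test in neither mutant, with log2 fold changes of 0.12 and 0.15 (SE 0.08 for both, adjusted p = 0.38 and 0.18), although scaling to total counts gave 0.25 in dKO-E (adjusted p = 0.0208). None of 6 other polycystin family genes passed the filter on low counts in any comparison. Exons of *Pkd1* share 693 bases with *Tsc2* on the opposite strand, and whether the counting used strand is not given in the sources used here.

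*Cc2d2a* encodes a transition zone protein whose human orthologue is mutated in Joubert and Meckel syndromes (ENSMUSG00000039765.15, chromosome 5, 43662346 to 43740972). It was at 30.8, 41.7 and 46.1 CPM in the lowest, median and highest ctrl embryo. The cKO-E embryos A to E had 17.6, 22.1, 16.9, 17.7 and 23.4 CPM, and dKO-E had 15.7, 20.5 and 30.6 CPM. All mutant embryos lay below all ctrl embryos, by a narrow margin for dKO-E G at 30.6 CPM. *Cc2d2a* dropped to 0.502 of ctrl in cKO-E (log2 fold change -0.99, SE 0.12, adjusted p = 3.24e-05), and its dKO-E level was 0.519 of ctrl (-0.95, SE 0.12, adjusted p = 3.82e-05). It is the member closest in size of change to *Pkd2*. The log2 ratio within litters 4, 5 and 7 was -1.06, -1.34 and -0.65 in cKO-E, and -0.93 within litter 1 in dKO-E. Within batches 1 and 2 it was -1.09 and -0.82 in cKO-E, and -1.09 and -0.50 in dKO-E, where batch 2 with 3 ctrl and 2 dKO-E embryos did not pass the test (adjusted p = 0.22).

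*Bbs4* encodes a BBSome subunit also found at centriolar satellites (ENSMUSG00000025235.8, chromosome 9, 59321990 to 59353508). It was at 15.4, 19.7 and 23.2 CPM in the lowest, median and highest ctrl embryo. The cKO-E embryos A to E had 17.6, 8.89, 15.5, 4.72 and 9.49 CPM, and dKO-E had 3.16, 9.61 and 13.2 CPM. All dKO-E embryos lay below ctrl, whereas cKO-E A and C lay within the ctrl range. The log2 ratio within litters 4, 5 and 7 was uneven in cKO-E, at -1.22, -0.18 and -1.17, and was -1.47 within litter 1 in dKO-E. *Bbs4* fell to 0.595 of ctrl in cKO-E (log2 fold change -0.75, SE 0.19, adjusted p = 0.0118), and its dKO-E level was 0.448 of ctrl (-1.16, SE 0.17, adjusted p = 0.000128), and the difference between the mutants was -0.40 (SE 0.26, adjusted p = 0.35). The lowest embryo of each mutant was a shallow library, with 4 counts in cKO-E D and 3 in dKO-E G. Without the 3 libraries under 1200000 counts the log2 fold changes were -0.68 (adjusted p = 0.0202) and -1.12 (adjusted p = 0.000343). Within batches 1 and 2 they were -0.58 and -1.26 in cKO-E, with batch 1 not passing the test (adjusted p = 0.0622), and -1.18 and -1.26 in dKO-E, with batch 2 not passing it (adjusted p = 0.0657). The exons of *Bbs4* share 194 bases with *Adpgk* on the opposite strand, and *Adpgk* had log2 fold changes of -0.05 and 0.08.

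*Cspp1*, whose product organises microtubules of the axoneme and spindle poles (ENSMUSG00000056763.16, chromosome 1, 10037987 to 10136768), was the member that rose in both mutants. It was at 216, 229 and 249 CPM in the lowest, median and highest ctrl embryo, and at 298, 264, 255, 243 and 276 CPM in cKO-E A to E. The dKO-E embryos had 278, 301 and 316 CPM. All dKO-E embryos lay above ctrl, and 1 cKO-E embryo, D, lay within the ctrl range. *Cspp1* rose 1.28-fold in dKO-E (log2 fold change 0.36, SE 0.05, adjusted p = 5.84e-05) and 1.16-fold in cKO-E (0.21, SE 0.06, adjusted p = 0.0144). With litter as a block the rise in cKO-E no longer passed the test (0.16, adjusted p = 0.13), nor did it without cKO-E A (0.16, adjusted p = 0.0586). Within batches 1 and 2 it was 0.19 and 0.23 in cKO-E (adjusted p = 0.0863 and 0.19) and 0.32 and 0.44 in dKO-E. *Cspp1* shares 182 exon bases with *Cops5* on the opposite strand, which had log2 fold changes of -0.11 and -0.04.

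**Figure D3:**
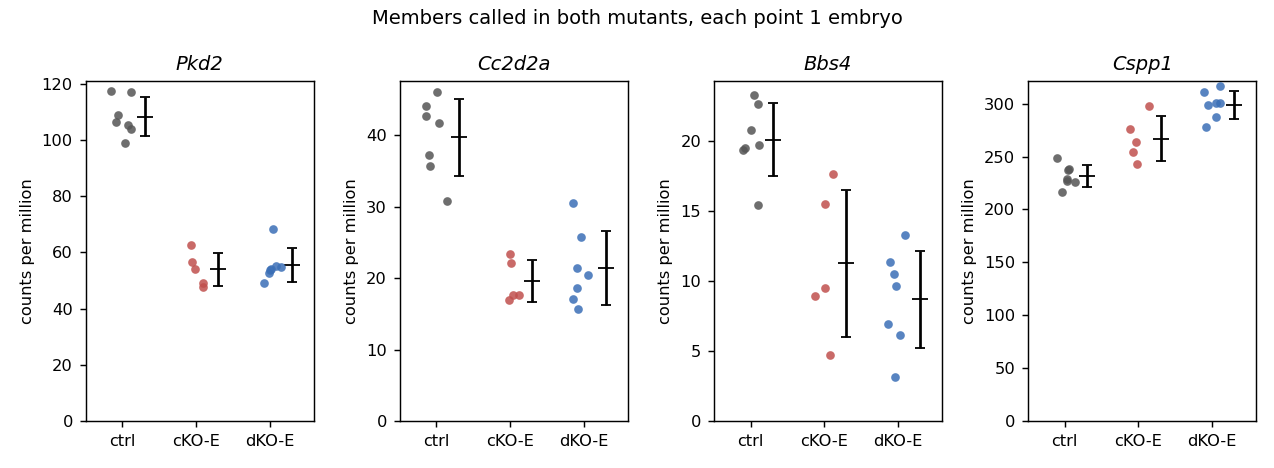
CPM of *Pkd2*, *Cc2d2a*, *Bbs4* and *Cspp1* (vertical axes, from 0) in each of 7 ctrl, 5 cKO-E and 7 dKO-E embryos; each point is 1 embryo, and the bar gives the mean with its SD. For *Pkd2* the mutant embryos reach at most 68.5 CPM and the ctrl embryos start at 98.9 CPM, while *Cspp1* shows the opposite order with 1 cKO-E embryo among ctrl.

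Beside *Bbs4*, 1 BBSome gene was called, in cKO-E. *Bbs9*, a structural subunit, was at 113, 118 and 139 CPM in the lowest, median and highest ctrl embryo, at 97.2, 102, 101, 84.9 and 106 CPM in cKO-E A to E and at 92.8, 110 and 117 CPM in dKO-E. All cKO-E embryos lay below ctrl and the dKO-E embryos overlapped with it. *Bbs9* fell by 0.27 on the log2 scale in cKO-E (SE 0.06, adjusted p = 0.00794), and had -0.17 in dKO-E (SE 0.06, adjusted p = 0.0711). With litter as a block the change in cKO-E was -0.21 (adjusted p = 0.13). *Bbs1*, another BBSome subunit, stood at -0.39 and -0.40 on the log2 scale in cKO-E and dKO-E without passing the test (adjusted p = 0.12 and 0.10). *Bbs2*, *Bbs5*, *Bbs7*, *Ttc8* and *Arl6* were called in no comparison.

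Among the IFT genes, neither complex had all its subunits on 1 side of 0. Of 11 IFT-B subunits, 6 had values above 0 in cKO-E and 9 in dKO-E, where 53.4% and 51.4% of all genes did. In dKO-E against cKO-E, 10 of the 11 were above 0 and 1 below, where 54.1% of all genes were above 0. No test was run on these counts. Against ctrl, 1 IFT-B subunit was called, *Ift80* in cKO-E. *Ift80* was at 86.0, 96.3 and 111 CPM in the lowest, median and highest ctrl embryo, at 89.2, 79.1, 78.5, 79.0 and 83.3 CPM in cKO-E A to E, and at 94.9, 99.0 and 109 CPM in dKO-E. Of the cKO-E embryos, A alone overlapped with ctrl. *Ift80* fell by 0.26 on the log2 scale in cKO-E (SE 0.07, adjusted p = 0.0199), with a value of 0.03 for dKO-E (SE 0.06, adjusted p = 0.77). Its call in cKO-E was lost with litter as a block (-0.29, adjusted p = 0.0592) and without cKO-E B (-0.24, adjusted p = 0.0607) or cKO-E C (-0.24, adjusted p = 0.0620).

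In IFT-A, *Ift43* fell and *Wdr35* rose in cKO-E, and *Ift122* fell in dKO-E. *Ift43* was at 55.6, 62.9 and 67.6 CPM in the lowest, median and highest ctrl embryo and at 43.3, 55.1, 54.5, 56.6 and 55.9 CPM in cKO-E A to E (log2 fold change -0.25, SE 0.08, adjusted p = 0.0426). *Wdr35* was at 41.1, 48.0 and 55.2 CPM in ctrl and at 61.6, 49.9, 60.4, 55.4 and 59.6 CPM in cKO-E A to E (0.26, SE 0.08, adjusted p = 0.0355). *Ift122* was at 27.6, 30.1 and 40.0 CPM in ctrl and at 19.4, 25.3 and 29.9 CPM in dKO-E (-0.32, SE 0.10, adjusted p = 0.0368). In each case the groups overlapped. These calls are weak: leaving out 1 embryo ended that of *Ift43* for 9 of 12 embryos (adjusted p up to 0.125, without cKO-E A), that of *Wdr35* for 8 of 12 (up to 0.11, without cKO-E A) and that of *Ift122* for 7 of 14 (up to 0.0884, without dKO-E B). With litter as a block none of the 3 passed the test (adjusted p = 0.22, 0.18 and 0.36). *Ift122* lies 30.6 Mb from *Emx1*, the locus that carries Cre, on chromosome 6.

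The kinesins differed from each other. *Kif3a*, the kinesin-2 motor that drives IFT-B trains, was at 65.1, 78.0 and 87.6 CPM in the lowest, median and highest ctrl embryo and at 103, 88.3, 95.4, 87.3 and 84.7 CPM in cKO-E A to E. The groups overlapped, and the rise of 0.22 on the log2 scale (SE 0.07, adjusted p = 0.0478) did not pass the test with litter as a block (0.17, adjusted p = 0.24) or without any of 9 of 12 embryos (adjusted p up to 0.175, without cKO-E A). *Kif7*, a kinesin at the ciliary tip that organises GLI processing, was at 15.4, 20.0 and 22.2 CPM in ctrl, at 18.0, 20.6, 14.4, 16.5 and 21.7 CPM in cKO-E A to E and at 24.4, 27.0 and 33.7 CPM in dKO-E. All dKO-E embryos lay above all ctrl and all cKO-E embryos. *Kif7* rose 1.40-fold in dKO-E against ctrl (log2 fold change 0.48, SE 0.11, adjusted p = 0.00663), and had -0.05 in cKO-E (SE 0.14, adjusted p = 0.95). With litter as a block the value in dKO-E was 0.66 (adjusted p = 0.0328). Within batches 1 and 2 it was 0.47 and 0.51, with batch 2 not passing the test (adjusted p = 0.26). Exons of *Kif7* share 928 bases with genes on the opposite strand, among them *Ticrr*, whose log2 fold changes were -0.63 and -0.22 in cKO-E and dKO-E (adjusted p = 0.00219 and 0.15). *Arl13b*, the ciliary membrane GTPase, was called in no comparison, with 0.16 and 0.18 against ctrl (adjusted p = 0.26 and 0.24).

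Of the 8 transition zone genes, *Cc2d2a* was called in cKO-E, and *Cc2d2a*, *Tmem67* and *Tctn1* in dKO-E. *Tmem67*, which encodes the membrane protein meckelin, was at 42.5, 45.0 and 52.6 CPM in the lowest, median and highest ctrl embryo and at 33.2, 37.0 and 41.3 CPM in dKO-E. The groups did not overlap, and *Tmem67* fell by 0.30 on the log2 scale (SE 0.07, adjusted p = 0.00916). With litter as a block this was -0.22 (adjusted p = 0.32). *Tctn1*, of the tectonic family, was at 19.6, 25.1 and 28.5 CPM in ctrl and at 24.8, 31.5 and 36.9 CPM in dKO-E (log2 fold change 0.33, SE 0.11, adjusted p = 0.0498). Its groups overlapped, and the call ended without any of 10 of 14 embryos (adjusted p up to 0.11, without ctrl C) and with litter as a block (0.14, adjusted p = 0.64). *Tctn1* shares 2113 exon bases with opposite-strand genes, among them *Hvcn1*, which had 0.46 in dKO-E (adjusted p = 0.30). *Tmem67* shares 420 with opposite-strand genes, among them *Rbm12b2* (-0.02, adjusted p = 0.99). *Mks1*, *Rpgrip1l*, *Cep290* and *Ahi1* were called in no comparison.

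With litter as a block, the log2 fold change rests on the embryos of litters that held both groups. These were 3 cKO-E and 5 ctrl embryos of 3 litters, and 3 dKO-E and 2 ctrl embryos of 1 litter. The other embryos still entered the filter, the scaling and the estimate of spread, so the adjusted p does not rest on the shared litters alone. In cKO-E 3 members were called, all of them lower, namely *Pkd2*, *Cc2d2a* and *Bbs4* (adjusted p = 1.57e-05, 0.000725 and 0.0144). In dKO-E 2 members rose, *Cspp1* and *Kif7*, and 3 fell, again *Pkd2*, *Cc2d2a* and *Bbs4* (adjusted p = 3.73e-05, 0.0121 and 0.00371). The share of all genes called with litter as a block is not given here, so these counts do not show a change particular to the members. Groups did not overlap for 3 of the 40 members in cKO-E (7.5%, beside 8.17% of all genes) and for 6 of 40 in dKO-E (15%, beside 4.23%). The 6 were *Pkd2*, *Cc2d2a*, *Bbs4* and *Tmem67* below ctrl, and *Cspp1* and *Kif7* above it.

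dKO-E and cKO-E were compared directly to learn where the 2 mutants differed. Of 41 members tested, 3 were higher in dKO-E, *Ift80*, *Kif7* and *Tctn2* (7.32%, beside 5.59% of all 11746 genes). None was lower by edgeR's quasi-likelihood test, beside 9.42% of all genes, nor by DESeq2 or the likelihood-ratio test. With sex as a covariate 2 members were lower, and within batch 1 alone 1 was, for which the share of all genes is not given here. In the main test 8 members had an unadjusted p under 0.05 in either direction (19.5%, beside 27.5% of all genes). At a rate of 0.001, which 0.383% of all genes passed as higher and 2.75% as lower, no member was called. The members' median log2 fold change was 0.05, and that of all genes 0.02. Groups did not overlap for 2 members, *Ift80* and *Kif7* (4.88%, beside 6.76%). *Ift80* was higher by 0.30 on the log2 scale (SE 0.07, adjusted p = 0.00376), by 0.31 and 0.32 within batches 1 and 2 (adjusted p = 0.0506 and 0.34). *Kif7* had 0.54 (SE 0.13, adjusted p = 0.0066), 0.56 and 0.49 within batches 1 and 2 (adjusted p = 0.0397 and 0.49), and *Ticrr* on the opposite strand had 0.42 (adjusted p = 0.0262). *Tctn2*, a tectonic of the transition zone, was at 4.87, 10.6 and 15.4 CPM in the lowest, median and highest ctrl embryo, at 11.7, 6.88, 6.63, 10.6 and 6.78 CPM in cKO-E A to E, and at 9.25, 12.2 and 16.9 CPM in dKO-E. The groups overlapped. *Tctn2* had 0.58 (SE 0.19, adjusted p = 0.0467), and its call ended without any of 8 of 12 embryos (adjusted p up to 0.145, without cKO-E C).

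**Figure D4:**
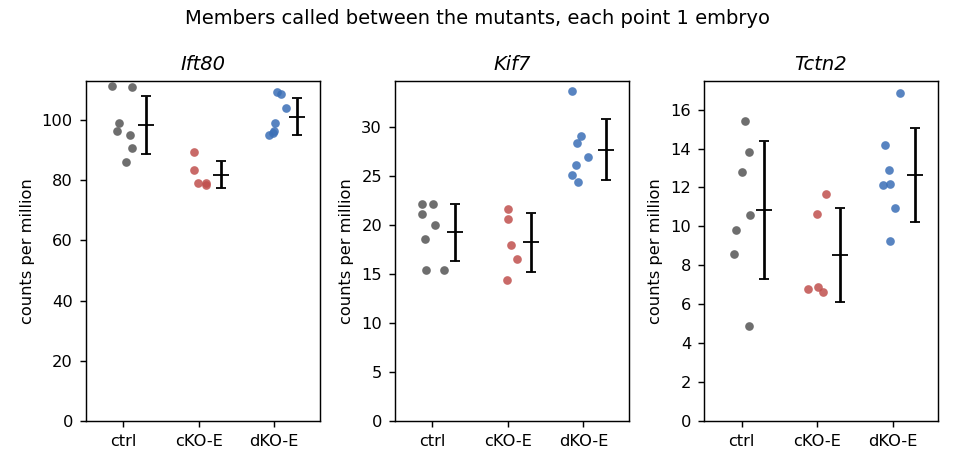
CPM of *Ift80*, *Kif7* and *Tctn2* (vertical axes, from 0) in each of 7 ctrl, 5 cKO-E and 7 dKO-E embryos; points are embryos, and the bar gives the mean with its SD. For *Kif7* all 7 dKO-E embryos (24.4 to 33.7 CPM) lie above the ctrl and cKO-E embryos, and for *Ift80* the cKO-E embryos (78.5 to 89.2 CPM) lie below the dKO-E embryos.

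A further 87 genes of the cilium were listed by role beside the members. Of 72 tested in cKO-E 3 rose and 10 fell (4.17% and 13.9%, beside 7.31% and 9.88% of all genes). Of 71 in dKO-E 5 rose and 6 fell (7.04% and 8.45%, beside 5.45% and 10% of all genes). Between the mutants, 6 of 73 had more counts in dKO-E and 2 had fewer (8.22% and 2.74%, beside 5.59% and 9.42% of all genes). Of the Hedgehog pathway, which signals through the cilium, 5 of 10 genes tested fell in cKO-E and 1 rose. At the rate of 0.001 these included the coreceptors *Boc* (log2 fold change -0.44, SE 0.08, adjusted p = 0.000754) and *Cdon* (-0.73, SE 0.11, adjusted p = 0.000177). The others, chosen here after their values were seen, were the signal transducer *Smo* (-0.36), the coreceptor *Gas1* (-0.79) and the transcription factor *Gli2* (-0.27), while the receptor and pathway target *Ptch1* was higher (0.85, SE 0.16, adjusted p = 0.00142). In dKO-E *Cdon* alone of the 10 was called (-0.33, adjusted p = 0.0187). Between the mutants, *Boc* and *Cdon* were higher in dKO-E (both 0.41, adjusted p = 0.00553 and 0.0177), as was the inhibitor gene *Sufu*, also named after its value was seen (0.28, adjusted p = 0.0178), and *Ptch1* was lower (-1.004, SE 0.15, adjusted p = 0.000117). Markers of interneurons and the ganglionic eminence, tissue next to the cortex, summed to 9.05 to 86.0 CPM in ctrl, 64.0 to 119.7 in cKO-E and 29.2 to 68.0 in dKO-E, and all 4 tested markers had values of 0.74 or more on the log2 scale in cKO-E against ctrl (median 0.86), with an unadjusted p under 0.05 for each and 1 of them called. All 4 were called lower when dKO-E was set against cKO-E. Markers of apical progenitors summed to 1096 to 1188 CPM in ctrl, 957 to 1226 in cKO-E and 955 to 1171 in dKO-E. Of 7 tested in cKO-E 3 fell and 1 rose, with a median log2 fold change of -0.34, where the 10 Hedgehog genes had -0.21. Markers of intermediate progenitors summed to 389 to 488, 312 to 401 and 307 to 471 CPM, and of 6 tested in cKO-E 2 fell and all 6 were below 0 (median -0.32). The part of these cell types in the Hedgehog values was not tested.

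Among 17 genes of the basal body and its distal appendages, 1 rose and 2 fell in cKO-E, and 2 rose and 3 fell in dKO-E. Over all genes tested, 7.31% rose and 9.88% fell in cKO-E, and 5.45% rose and 10% fell in dKO-E. *Dzip1*, which acts at the ciliary base in Hedgehog signalling, was called at 0.001 in dKO-E (log2 fold change -0.48, SE 0.08, adjusted p = 0.000219) and was also lower there than in cKO-E (-0.37, adjusted p = 0.0045). Named after their values were seen, *C2cd3* and *Ccp110*, both centriolar proteins, were lower and *Sclt1* of the distal appendages was higher in both mutants. *C2cd3* had -0.28 and -0.26, *Ccp110* -0.29 and -0.40, and *Sclt1* 0.22 and 0.23. Of the RFX and FOXJ1 factor genes, 2 of 6 tested fell in cKO-E, *Rfx5* (-0.55, adjusted p = 0.0404) and *Rfx7* (-0.27, adjusted p = 0.00369), also named after their values were seen. None of the 6 was called in dKO-E. Whether *Rfx5* or *Rfx7* acts on cilium genes was not tested. Summed markers of motile cilia, 12 of 14 found in the annotation, were at 80.9 to 105.8 CPM in ctrl, 83.8 to 93.6 in cKO-E and 70.4 to 103 in dKO-E.

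The 28 members called in no comparison had log2 fold changes of -0.39 to 0.28 in cKO-E and -0.44 to 0.59 in dKO-E among those tested, with a median SE of 0.11 and 0.10. Their values do not show that these genes were unaffected, since changes of the size of their SE could not be detected with 5 or 7 embryos. *Ift22*, a small GTPase of IFT-B, had the highest of these values in dKO-E (0.59, SE 0.21, adjusted p = 0.0598), with 4.75 to 9.73 CPM in ctrl and 6.01 to 15.8 CPM in dKO-E. *Mks1* had the lowest there (-0.44, SE 0.22, adjusted p = 0.19), with 4.78 to 8.82 CPM in ctrl and 1.39 to 6.35 CPM in dKO-E, where dKO-E A rested on 3 counts. Of all members, 8 share a chromosome with *Ino80*, *Trp53* or *Emx1*, at 8.94 Mb or more from it, and *Pkd2*, *Cc2d2a*, *Bbs4* and *Cspp1* are not among them.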

How the data were processed

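RNA of E13.5 cortex, 1 library per embryo, was depleted of ribosomal RNA and made into libraries by Click-seq. Per the labels and the study's methods, the authors trimmed reads with cutadapt 1.13, aligned them to GRCm38/mm10 with STAR 2.5.2a, collapsed duplicates by molecular identifier with UMI-tools 0.5.3 and counted with HTSeq 0.6.1p1 in intersection-nonempty mode, and deposited raw gene counts. The GENCODE release and strand setting are not given in the sources used here. Summary lines of unassigned reads were left out of library sizes (reads without a feature were 4.96% to 12.5% of all). Symbols came from GENCODE M21 (51719 of 51912 identifiers matched, and all 42 members).

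Members, gene lists, motifs and tests were chosen with earlier results of these data known. Each comparison was fitted alone without covariates by edgeR 4.0.16 (filterByExpr with a minimum count of 10, TMM, glmQLFTest, Benjamini-Hochberg over all genes tested), and called at 0.05. CPM used TMM factors over all 19 libraries. The SE is the log2 fold change over the root of F. Alternatives used DESeq2 1.42.0, other scalings, filters, covariates and subsets. Litter marks a shared litter in the labels and was tried as a block (correlations of deviations between litter mates -0.09 to 0.36 in 5 cKO-E pairs and -0.34 to 0.35 in 6 dKO-E pairs). In counts simulated for cKO-E against ctrl, with 10513 genes tested, 50 of 50 genes raised 2-fold and 14 of 50 raised 1.25-fold were called, with 7 false calls. Of genes lowered there, 47 of 50 set to 0.5 of their level and 5 of 50 set to 0.8 were called. Simulated counts were drawn independently per embryo with the dispersion of the ctrl embryos and without effects of litter, sex or batch. The recovery and false calls therefore do not carry over to the real design, where these differ between groups. Members called in any comparison, and both polycystins, were described by embryo, and other cilium genes were named if called at 0.001 against ctrl, apart from those marked as named after their values were seen. R 4.3.3, Python 3.11.15 and matplotlib 3.10.9 were used.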

Additional observations from a re-analysis of the deposited data

Results flagged for a closer look

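Among the 45 groups of embryos formed by 15 described members and 3 genotypes, 4 held an embryo whose gap to its nearest neighbour was large for the range of the group by Dixon's criterion at 95%, which chance alone passes in about 1 of 20 groups. *Pkd2* was at 68.5 CPM in dKO-E G, where the other dKO-E embryos lay between 49.0 and 55.1 CPM, and it remained below every ctrl embryo. *Bbs9* was at 139 CPM in ctrl A, with the others at 113 to 121 CPM. *Ift122* was at 40.0 CPM in ctrl D, with the others at 27.6 to 32.6 CPM, and without ctrl D its log2 fold change in dKO-E was -0.26 (adjusted p = 0.0884 by edgeR). *Ift43* was at 43.3 CPM in cKO-E A, with the others at 54.5 to 56.6 CPM, and without cKO-E A its log2 fold change was -0.19 (adjusted p = 0.125).

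The mutants differed from each other by edgeR's direct test for *Ift80* (log2 fold change 0.30 in dKO-E against cKO-E), *Kif7* (0.54) and *Tctn2* (0.58).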

How the results depend on the processing

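No called member reversed sign under any alternative run, but 17 of 20 member calls were lost under at least 1. The 3 that passed every alternative were *Pkd2* in both mutants (log2 fold change -1.09 to -0.93 in cKO-E over 29 alternatives and -1.07 to -0.89 in dKO-E over 32) and *Cc2d2a* in cKO-E (-1.09 to -0.82). Calls in dKO-E far from the threshold were lost in 1 alternative each, *Cc2d2a* (-0.50, adjusted p = 0.22) and *Bbs4* (-1.26, adjusted p = 0.0657) within batch 2 and *Cspp1* (0.33, adjusted p = 0.13) among females. In cKO-E, where the main counts were 3 higher and 6 lower, DESeq2 and, chosen after the depth was seen, the omission of libraries under 1200000 counts gave 1 higher. A rate of 0.001 gave 0 higher and 2 lower, and 0 were higher with no filter beyond 1 count, within batch 1, among females and with the label's letter as a replicate block. Litter as a block and batch 2 each gave 0 higher and 3 lower. With 10 counts required in every library the members' median was 0.047. In dKO-E (main counts 3 and 5), higher members numbered 1 at a rate of 0.001, 5 with upper quartile factors, 10 with total counts, 5 in a fit over all libraries, 0 among females and 1 among males, and lower members 3 at 0.001, with total counts, with litter as a block, within batch 1, among females and among males, and 1 within batch 2. The median in dKO-E was 0.17 with total counts (all genes 0.10), -0.00061 with litter as a block, -0.034 among females and 0.12 among males. Between the mutants (main counts 3 and 0), 0 were higher at 0.001, within batch 2 and among females, 1 was higher and 1 lower within batch 1, 5 were higher with total counts and 2 lower with sex as a covariate. The median there was 0.11 with total counts and 0.00039 among females. Apart from construction (fewer embryos, a stricter rate), the cause was not tested. Member counts in this section are given without the share of all genes called under the same setting, so they do not show a change particular to the members.

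Leaving out 1 embryo at a time gave 0 to 3 higher and 4 to 6 lower members in cKO-E, with 0 higher without cKO-E A and 1 without ctrl A, ctrl H, ctrl I, cKO-E C or cKO-E D, 2 to 4 higher and 4 to 5 lower in dKO-E, and 2 to 4 higher and 0 lower between the mutants. The medians ran from -0.05 to 0.02, 0.05 to 0.11 and 0.02 to 0.06.

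Deviations of embryos with the same letter in their labels correlated at -0.02 to 0.16 in 4 pairs of cKO-E and ctrl. The range was -0.34 to 0.13 in 5 pairs of dKO-E and ctrl and -0.08 to 0.10 in 5 pairs of the mutants. Among these pairs, dKO-E A and B were also litter mates of ctrl A and B. Known litter mates correlated at -0.09 to 0.36 for cKO-E and ctrl and at -0.34 to 0.35 for dKO-E and ctrl. These values therefore cannot tell whether the letters pair embryos. With the letter as a replicate block the members counted 0 higher and 5 lower in cKO-E, 2 and 4 in dKO-E, and 2 and 0 between the mutants.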
